A study of Mus musculus with 15 samples.

Results

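The genes described here are 38 components of NF-kB and MyD88 signalling. They were chosen by symbol from a list of pathway members, and all 38 were found once in each of 2 tables of expression values. The table of IL-33 activation held 23846 genes, and in the table of 10BiT mice 23529 genes had a value in every library. Measurements were FPKM, which count sequenced fragments relative to transcript length and library size. Levels can thus be set side by side between genes and between libraries of the same table, but only approximately. Quantile or equal-median scaling of the libraries moved some calls, as given below. The 38 genes fall into 8 roles, from the transcription factor subunits to the ubiquitin-handling proteins that limit the pathway.

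All cells came from mice aged 6 to 14 weeks, of either sex, with 5 animals pooled per experiment. In the first table, lung ILC2, group 2 innate lymphoid cells sorted as live CD45+ Thy-1.2+ lineage-negative ST2+ cells, came from mice given intraperitoneal PBS (ILC2PBS, 3 libraries) or 500 ng IL-33 on each of 4 days (ILC2IL-33, 2 libraries). The methods name C57BL/6 and 10BiT Foxp3 GFP mice as donors. The title of ILC2IL-33 library 1 carries the tag WT, and the other titles of this table name no genotype. In the second table every mouse was 10BiT Foxp3 GFP and received the same IL-33 course, so no unstimulated group exists there. The 10BiT allele is a bacterial artificial chromosome transgene that puts Thy-1.1 under Il10 control, and Foxp3 GFP is a knock-in that marks Treg cells. Lung ILC2 were split into Thy-1.1- cells (ILC2act, 3 libraries) and Thy-1.1+ cells (ILC210, 3 libraries), and splenic Treg cells into Thy-1.1- (Treg10-, 2 libraries) and Thy-1.1+ cells (Treg10+, 2 libraries). The reporter marks Il10 transgene activity and not the protein, and cell type and organ cannot be told apart between ILC2 and Treg libraries.

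Labels and markers matched in the main. Foxp3, the lineage factor of Treg cells, was at 88.4 to 112 FPKM in the 4 Treg libraries and at most 0.766 FPKM in ILC2 libraries, and Il1rl1, encoding the ST2 chain of the IL-33 receptor, was at 99.6 to 261 FPKM in ILC2 and 20.6 to 39.9 FPKM in Treg libraries. Markers of other lung cells were not evenly spread. Summed FPKM of 8 alveolar type 2 epithelial markers was 4918 to 13994 in ILC2PBS, 101 to 177 in ILC2IL-33, 421 to 523 in ILC2act and 5406 to 8790 in ILC210. For 8 macrophage markers the sums were 1734 to 3542, 29.7 to 31.4, 49.9 to 78.7 and 614 to 1404 in the same order. In ILC2PBS libraries 1 and 2 the Y-linked gene Ddx3y was at 5.47 and 8.25 FPKM, against 0.034 in ILC2PBS library 3 and at most 0.153 in ILC2IL-33. The 10 libraries of the 10BiT table all held it, at 15.3 to 25.6 FPKM. Xist, the RNA of the inactive X chromosome, was at 4.15, 4.35 and 19.5 FPKM in ILC2PBS libraries 1, 2 and 3. It was at 42.5 and 48.1 FPKM in ILC2IL-33 libraries 1 and 2, and at most 0.0051 FPKM in the 10BiT table. The sex mix of the pools thus differed between ILC2PBS and ILC2IL-33, and its part was not tested. The Treg libraries summed to 6.16 to 24.5 FPKM for the alveolar type 2 list. Most or all alveolar type 2 markers differed in every comparison below that involves ILC2. The part of any of these markers in the results was not tested.

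NF-kB transcription factors are dimers held in the cytoplasm by IkB proteins until the IKK complex marks IkB for destruction. IL-33 reaches this switch through ST2, the adaptor MyD88, IRAK kinases, the ubiquitin ligase TRAF6 and the kinase TAK1, and in ILC2 the route is known for driving type 2 cytokine production. Many of the pathway's inhibitors are themselves NF-kB target genes, which closes a negative feedback loop.

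The promoter DNA of 4 members that differed between cell types is printed here, because the results turn on their mRNA levels and their windows hold letters that fit the NF-kB consensus. Each window is the 250 bases before a RefSeq start site in GRCm38.p6, written 5′ to 3′ on the gene's own strand. Capitals mark every match to the 10-base NF-kB consensus on either strand, and overlapping matches form one stretch.
Nfkbia (chr12:55492648-55492897, minus strand): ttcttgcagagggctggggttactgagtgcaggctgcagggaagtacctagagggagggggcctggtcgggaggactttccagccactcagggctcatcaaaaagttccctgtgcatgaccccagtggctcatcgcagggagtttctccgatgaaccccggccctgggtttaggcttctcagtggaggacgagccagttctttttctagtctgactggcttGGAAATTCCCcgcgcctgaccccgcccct
Tnfaip3 (chr10:19015411-19015660, minus strand): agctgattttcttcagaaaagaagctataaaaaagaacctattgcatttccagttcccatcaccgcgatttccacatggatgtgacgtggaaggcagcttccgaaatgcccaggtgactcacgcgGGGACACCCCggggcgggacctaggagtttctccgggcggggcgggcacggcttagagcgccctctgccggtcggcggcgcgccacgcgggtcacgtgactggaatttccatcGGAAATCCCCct
Nfkbid (chr7:30422156-30422405, plus strand): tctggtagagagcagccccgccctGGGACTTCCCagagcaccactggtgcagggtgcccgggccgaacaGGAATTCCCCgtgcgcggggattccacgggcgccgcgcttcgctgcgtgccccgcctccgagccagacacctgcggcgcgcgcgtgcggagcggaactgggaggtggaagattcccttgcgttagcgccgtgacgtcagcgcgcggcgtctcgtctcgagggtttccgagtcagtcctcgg
Nfkb2 (chr19:46304487-46304736, plus strand): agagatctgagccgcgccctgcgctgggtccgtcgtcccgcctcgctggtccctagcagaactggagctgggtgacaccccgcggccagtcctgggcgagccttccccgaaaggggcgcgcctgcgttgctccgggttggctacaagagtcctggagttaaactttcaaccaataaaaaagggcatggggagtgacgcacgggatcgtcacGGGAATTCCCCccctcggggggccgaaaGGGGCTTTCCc

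The Tnfaip3, Nfkbid and Nfkb2 windows shown hold 2 stretches each and the Nfkbia window holds 1. Each is the first listed window of its gene with a match. The RefSeq table gives 1 more window for Tnfaip3 and 2 more for Nfkbid, with 0 matches, and 2 more for Nfkb2, with 1 stretch each. Of the 32 members with a window in the RefSeq table, 12 had at least 1 match (37.5%), against 1204 of 27025 genes with a window (4.46%). The others with a match were Tank, Bcl10, Map3k7, Cyld, Rel, Tnip1, Traf3 and Nfkbie. A match is a description of the letters and not a measured binding site. No window was given for Nfkb1, Nfkbiz, Relb, Ikbkb, Map3k8 and Malt1.

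In ILC2 libraries Nfkbia, Tnfaip3, Nfkbid, Nfkbiz and Nfkb1 led the 38 members, and in Treg libraries Nfkbia alone of these did. Nfkbia, encoding the inhibitor IkB alpha, had the highest mean of the 38 genes in ILC2act (1167 ± 105 FPKM, SD, n = 3), ILC210 (1261 ± 166 FPKM, SD, n = 3), Treg10- and Treg10+, and ranked 57 among all genes in ILC210. In ILC2PBS it was exceeded by Tnfaip3, the ubiquitin-editing brake A20, at 560 ± 112 FPKM (SD, n = 3) against 495 ± 83.5 FPKM for Nfkbia, a gap inside the spread between libraries. Nfkbid and Nfkbiz, encoding nuclear IkB proteins that modulate NF-kB at chromatin, and Nfkb1, encoding a DNA-binding subunit and its precursor inhibitor, made up the rest of the leading 5 members in every ILC2 group. In Treg cells the members after Nfkbia were Rbck1, a subunit of the linear ubiquitin ligase, at 101 to 112 FPKM, and Tank, an adaptor of the non-canonical IKK kinases, at 79.7 to 107 FPKM. The map of all values shows this split between cell types.

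**Figure D1:**
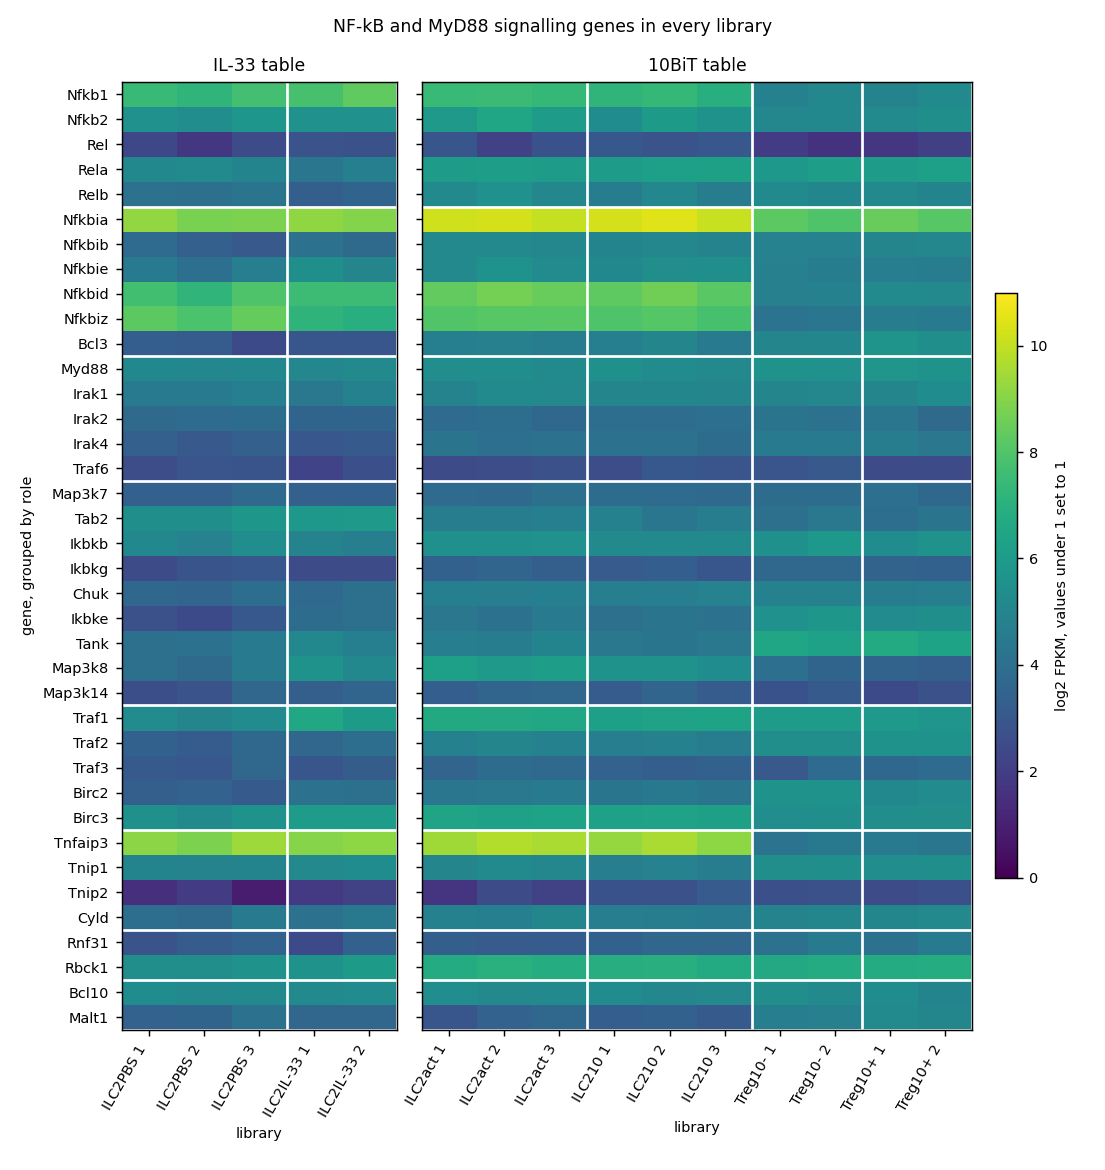
Level of each of the 38 genes (vertical axis, grouped by role between white lines) in each of the 15 libraries (horizontal axis), as log2 FPKM with values under 1 set to 1. The 2 tables were made separately and are in separate panels. Nfkbia, Tnfaip3, Nfkbid, Nfkbiz and Nfkb1 are bright in all 11 ILC2 libraries, and in the 4 Treg libraries Nfkbia is the brightest.

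The first comparison asked which pathway genes differed in lung ILC2 after IL-33 injection. In ILC2IL-33, 3 signalling genes rose at least 2-fold, the IKK-related kinase gene Ikbke, the kinase gene Map3k8 and the adaptor gene Traf1, and the nuclear IkB gene Nfkbiz fell. The genes passing at an adjusted p under 0.05 (limma, Benjamini-Hochberg over 12565 genes) and a 2-fold change were 3 higher and 1 lower of 38, or 7.89% and 2.63%. Of all genes tested, 8.22% were higher and 18.0% lower, so the share of members called higher was near the background. By the adjusted p alone 7 members were higher and 2 lower, beside 13.1% and 21.5% of all genes. The members' median log2 fold change was 0.08 beside -0.06 for all genes. Over all genes 1033 were higher and 2267 lower, with quantile scaling 1655 and 1704 (median of all genes 0.14), and with equal medians 1441 and 1974 (median 0.12). The members were then 4 higher and 1 lower, and 4 higher and 0 lower, since Tnip2 joined with quantile scaling, and with equal medians Nfkbie joined and Nfkbiz no longer passed.

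Among NF-kB subunits, Nfkb1 was at 169, 145 and 210 FPKM in the 3 ILC2PBS libraries and at 224 and 317 FPKM in ILC2IL-33. The groups did not overlap, but the log2 difference of 0.63 ± 0.24 (SE) did not pass (adjusted p = 0.0865, limma). Rela, the main transactivating subunit, was at 34.7, 38.05 and 31.0 FPKM in ILC2PBS and 19.7 and 27.2 FPKM in ILC2IL-33, a log2 difference of -0.57 ± 0.20 (SE, adjusted p = 0.0636). Both ILC2IL-33 values of Rela lay under all ILC2PBS values. Relb, the partner of the alternative pathway, was at 16.7 to 18.8 FPKM in ILC2PBS against 10.2 and 11.6 FPKM, a log2 fold change of -0.70 (adjusted p = 0.0218, limma), which is under the 2-fold limit. Nfkb2, its precursor partner, and Rel, encoding the subunit c-Rel, had log2 fold changes of -0.02 and 0.54 and did not pass.

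Among IkB genes, Nfkbiz (chr16:55811376-55838641, minus strand, GRCm38) was at 298, 238 and 334 FPKM in ILC2PBS and at 141 and 119 FPKM in ILC2IL-33. Every ILC2IL-33 value was under every ILC2PBS value, and the gene fell by 1.14 on the log2 scale (2.21-fold lower, SE 0.21, adjusted p = 0.0053, limma). Nfkbie, encoding IkB epsilon, was at 16.2 to 26.1 FPKM in ILC2PBS and 44.985 and 31.9 FPKM in ILC2IL-33, a log2 fold change of 0.83 (adjusted p = 0.0429, limma) that did not reach 2-fold. The most abundant inhibitor, Nfkbia, was at 591, 442 and 451 FPKM and at 581 and 491 FPKM. Nfkbid was at 204, 146 and 250 FPKM and at 185 and 188 FPKM. For both genes the groups overlapped, with log2 fold changes of 0.12 and -0.07. Nfkbib, another cytoplasmic IkB, and Bcl3, a nuclear one, also overlapped between groups.

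No gene of the receptor-proximal relay passed. Myd88 was at 35.5, 33.8 and 35.1 FPKM in ILC2PBS and 33.9 and 36.9 FPKM in ILC2IL-33, and its log2 fold change was 0.02 with a 95% interval of -0.34 to 0.38. Irak1, a kinase recruited by MyD88, was at 22.8, 22.2 and 27.1 FPKM and at 21.0 and 28.4 FPKM. Of Myd88, Irak1, Irak2, Irak4 and Traf6, 0 of 5 passed in limma, 0 were under 0.05 without adjustment (44.7% of all genes were), and 0 passed the per-gene equal-variance test.

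The 3 members that rose encode kinases and a TRAF protein. Ikbke (chr1:131254601-131279563, minus strand), encoding IKK epsilon, a kinase known from interferon and NF-kB signalling, was at 6.59, 5.53 and 8.28 FPKM in ILC2PBS and at 14.96 and 16.5 FPKM in ILC2IL-33. It rose 2.34-fold (log2 fold change 1.23 ± 0.24, SE, adjusted p = 0.00653, limma). Map3k8, encoding the kinase TPL2 that is held by the Nfkb1 precursor and feeds the ERK arm, was at 16.9, 13.8 and 22.8 FPKM against 48.5 and 34.9 FPKM. The rise was 2.35-fold (log2 fold change 1.24 ± 0.26, SE, adjusted p = 0.00876), without overlap of the groups. Traf1 (chr2:34943257-34961772, minus strand), an adaptor that binds cIAP proteins, was at 39.5, 32.3 and 40.2 FPKM against 92.9 and 64.6 FPKM, or 2.09-fold higher (log2 fold change 1.06 ± 0.21, SE, adjusted p = 0.007).

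A further 3 genes of these roles were higher without reaching 2-fold. Tank was at 16.9, 17.015 and 23.0 FPKM in ILC2PBS and 35.6 and 26.8 FPKM in ILC2IL-33 (log2 fold change 0.72, adjusted p = 0.0407, limma). The ubiquitin ligase genes Birc2 and Birc3, encoding the cIAP proteins, had log2 fold changes of 0.78 (adjusted p = 0.022) and 0.58 (adjusted p = 0.0454). Birc3 was at 46.2, 37.4 and 51.0 FPKM in ILC2PBS and 67.1 and 65.95 FPKM in ILC2IL-33. The catalytic core of the canonical kinase, Ikbkb, was at 34.6, 29.0 and 41.5 FPKM against 30.1 and 25.97 FPKM, with overlap and a log2 fold change of -0.31. Tab2, the ubiquitin-binding partner of TAK1, was at 44.9, 43.9 and 56.0 FPKM against 58.9 and 61.6 FPKM, which did not pass (log2 fold change 0.33, adjusted p = 0.189).

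None of the brakes passed. Tnfaip3 was at 544, 456 and 678 FPKM in ILC2PBS and at 513 and 559 FPKM in ILC2IL-33, inside the ILC2PBS range, with a log2 fold change of -0.05 and a 95% interval of -0.64 to 0.55. Tnip1 and Tnip2, which encode partners of A20, had log2 fold changes of 0.33 and 0.60, and the deubiquitinase gene Cyld one of 0.18. The linear ubiquitin ligase genes Rnf31 and Rbck1 and the scaffold and protease genes Bcl10 and Malt1 did not pass either.

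**Figure D2:**
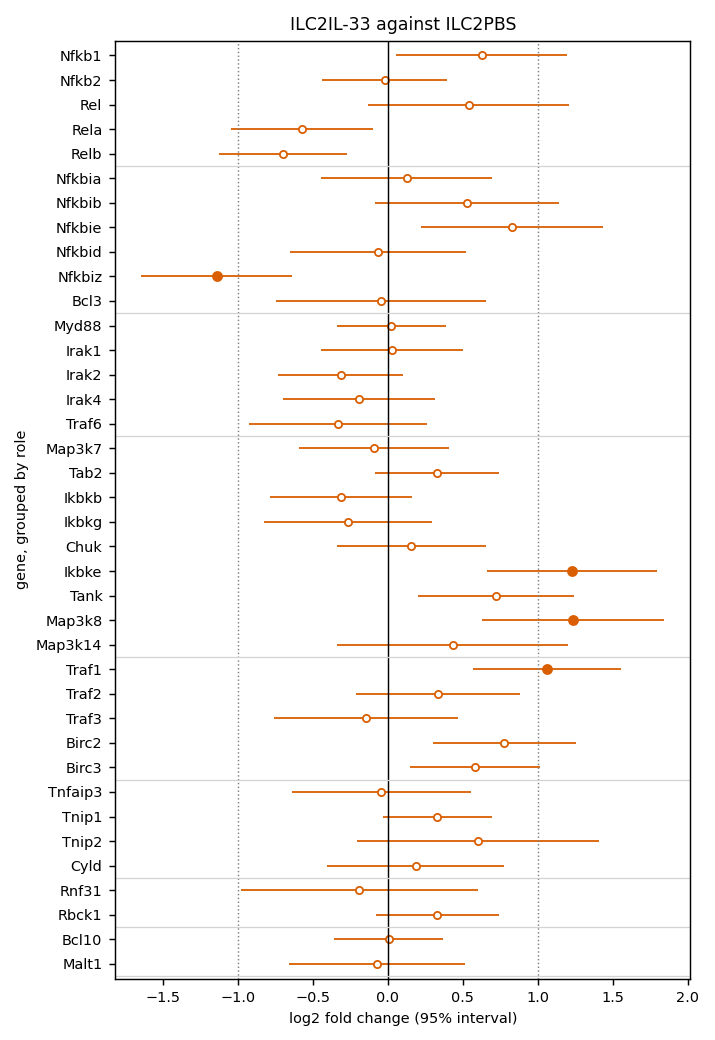
Log2 fold change of the 38 genes in ILC2IL-33 against ILC2PBS (horizontal axis) with its 95% interval, by gene (vertical axis, grouped by role between grey lines); filled points passed the adjusted p and 2-fold limits, and dotted lines mark a 2-fold change. The 4 filled points are Nfkbiz at -1.14, Ikbke at 1.23, Map3k8 at 1.24 and Traf1 at 1.06.

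The IL-33 comparison rests on few libraries. In a rerun of the kind of per-gene equal-variance test that the study used, none of the 4 passed. Its adjusted p on FPKM and on log2 values were 0.0631 and 0.057 for Ikbke and 0.12 and 0.101 for Map3k8. They were 0.126 and 0.078 for Traf1 and 0.108 and 0.0562 for Nfkbiz (limma called all 4). With ILC2PBS libraries 1 and 2 left out, Ikbke, Map3k8 and Traf1 no longer passed (log2 fold changes 0.92, 0.85 and 0.95), whereas Nfkbiz did (-1.36, limma, with 1 ILC2PBS library assumed to vary like the others). Without ILC2IL-33 library 1 only Ikbke and Nfkbiz passed, without ILC2IL-33 library 2 only Map3k8 and Traf1, and without ILC2PBS library 2 Traf1 was lost at 0.96. In the same comparison 8 of 8 macrophage markers, 8 of 8 alveolar type 2 markers and 10 of 10 endothelial markers were lower after IL-33, 8 of 8 proliferation genes were higher, and the part of these cells in the members' values was not tested. Immediate early genes, which respond within minutes to handling and stimulation, summed to 4034 to 4431 FPKM in ILC2PBS and 1955 to 2368 FPKM in ILC2IL-33, and their relation to Nfkbiz was not tested. Summed FPKM of 12 ILC2 markers was 2442, 1877 and 3138.5 in ILC2PBS libraries 1, 2 and 3. In ILC2IL-33 libraries 1 and 2 it was 3572 and 3033. The relation of these sums to the members' values was not tested. In bulk libraries fewer cells of a type and less RNA per cell cannot be told apart.

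Outside the 38 genes, counts after IL-33 are read against the 8.22% higher and 18.0% lower of all genes. The lists were chosen with earlier results of these data known, so their shares are descriptive. Of 24 upstream receptor genes tested, 3 were higher and 9 lower (12.5% and 37.5%). The decoy receptor gene Il1r2 rose (log2 fold change 4.80), while Ltbr and Tnfrsf1a, receptors of lymphotoxin and TNF, fell by 4.35 each. Of 33 other regulators, 1 was higher and 3 lower (3.03% and 9.09%, both under the share of all genes), with Tbkbp1 (-2.87), Traf5 (-1.28) and Tradd (1.23) the largest. Of 16 genes of the MAP kinase arm, 2 were lower (12.5%, also under that share), Mapk3 and Mapk11. Of 34 known NF-kB target genes, 6 were higher and 12 lower (17.6% and 35.3%), and the largest changes were falls of Il1b (-4.91), Ier3 (-4.37) and Ccnd1 (-4.19). The list's median was -0.43 beside -0.06 for all genes, and the per-gene test called 1 higher and 0 lower of the 34 on FPKM and 1 and 7 on log2 values. Markers of macrophages, alveolar type 2 cells and endothelium also fell in this comparison. The part of those cells in the values of these lists was not tested.

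The second comparison asked whether pathway genes differed between IL-10 reporter-positive and reporter-negative ILC2 of the same IL-33 course. No member passed in ILC210 against ILC2act (0 of 38, limma), where 10.3% of 11564 genes did, 9.24% higher and 1.05% lower. At an unadjusted p under 0.05 there were 11 members, beside 27.1% of all genes, and the per-gene equal-variance test called 0 on FPKM and 0 on log2 values. The members' changes lay between -0.54 and 0.75 on the log2 scale, with 29 of 38 below 0 and a median of -0.10 beside 0.03 for all genes.

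By the adjusted p alone, 3 genes were lower in ILC210, beside 4.34% of all genes. Map3k8 was at 73.1, 60.9 and 71.0 FPKM in ILC2act and 49.9, 49.8 and 41.1 FPKM in ILC210. The groups were apart, with a log2 fold change of -0.54 ± 0.12 (SE, adjusted p = 0.0122, limma), short of 2-fold. Tank was at 25.8, 25.2 and 30.9 FPKM against 21.2, 19.6 and 21.0 FPKM (log2 fold change -0.40, adjusted p = 0.0427, limma). Traf1 was at 102, 99.0 and 93.03 FPKM against 74.2, 80.3 and 83.2 FPKM (log2 fold change -0.31, adjusted p = 0.0469, limma). Every ILC210 value of these 3 genes lay below every ILC2act value. As the genes were picked by p on the same values, this separation adds no support, and its share over all genes was not counted. The median of all genes was -0.12 with quantile scaling and -0.11 with equal medians, and that of the members -0.15 and -0.24. With quantile scaling the calls over all genes went from 1069 higher and 121 lower to 812 and 296.

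In the most abundant members the groups overlapped. Nfkbia was at 1171, 1270 and 1059 FPKM in ILC2act and 1260, 1427 and 1095 FPKM in ILC210, with a log2 fold change of 0.11 (95% interval -0.22 to 0.43). Tnfaip3 was at 696, 859 and 789 FPKM against 621, 779 and 553 FPKM, with overlap (-0.27, adjusted p = 0.297). Nfkbid was at 327, 416 and 346 FPKM against 313, 394 and 292 FPKM, also with overlap. Nfkbiz was at 262, 280 and 287 FPKM against 251, 274 and 221 FPKM, and its interval ran from -0.39 to 0.09.

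Nfkb1 was at 173, 180 and 163 FPKM in ILC2act and 145, 160 and 125 FPKM in ILC210. The highest ILC210 value lay just under the lowest ILC2act value, and the log2 difference of -0.27 did not pass (adjusted p = 0.146). Rela was at 67.1, 72.5 and 66.6 FPKM against 68.2, 73.5 and 76.5 FPKM. Relb (-0.50) and Nfkb2 (-0.48) had the most negative values among subunits, with adjusted p of 0.0817 and 0.126 (limma). Myd88 was at 42.3, 42.0 and 37.8 FPKM against 45.5, 39.8 and 36.4 FPKM, a difference of -0.01 with an interval of -0.26 to 0.24. Irak1 was at 30.0, 38.6 and 36.1 FPKM against 31.9, 32.9 and 31.9 FPKM, again with overlap. The log2 differences of the remaining relay genes Irak2, Irak4 and Traf6 were 0.14, -0.06 and 0.23.

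Of the kinase genes, Ikbkb was at 46.5, 45.5 and 46.9 FPKM in ILC2act and 37.4, 38.3 and 39.0 FPKM in ILC210 (-0.28, adjusted p = 0.0537). The 2 sets of 3 did not overlap, and the share of such genes over all genes was not counted. The adjusted p lay just over 0.05, and the change was well under the 2-fold limit. Ikbke was at 20.5, 17.6 and 23.2 FPKM against 16.9, 18.7 and 17.1 FPKM, and Tab2 at 25.2, 24.6 and 26.6 FPKM against 28.9, 20.2 and 24.7 FPKM. Birc3 was at 86.0, 79.7 and 83.7 FPKM against 77.8, 82.0 and 76.0 FPKM. The groups overlapped in these last 3 genes. The largest positive value among the 38 was that of Tnip2 (0.75, adjusted p = 0.0731), which was among the lowest members at 3.22 to 5.97 FPKM in ILC2act and 6.62 to 8.92 FPKM in ILC210.

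Of 33 known NF-kB target genes tested, 6 were higher and 11 lower in ILC210, a share of 51.5% beside the 10.3% of all genes. The list was chosen with earlier results of these data known, and the study had already described Tnf, Lta and Il2 as low in ILC210. The share is therefore a description and not a test. The per-gene equal-variance test called 1 higher and 0 lower of the 33 on FPKM, and 5 and 5 on log2 values. Tnf was at 23.2, 39.8 and 53.5 FPKM in ILC2act and 0.576, 1.14 and 3.15 FPKM in ILC210 (log2 fold change -4.58 on values floored at 1 FPKM). The cytokine genes Il2 (-3.95) and Csf2 (-3.04) were lower as well. Ier3, an immediate early survival gene, was at 19.2, 27.5 and 13.5 FPKM against 169, 283 and 230 FPKM (3.53), and Il1b (3.33) and Vcam1 (2.90) were also higher. Il1b and Vcam1 are genes of macrophages and endothelium too, and in this comparison 6 of 6 macrophage markers tested and 10 of 10 endothelial markers were higher in ILC210, and the part of those cells was not tested. Of 21 upstream receptors tested, 4 were higher, led by Ltbr (3.01), Tnfrsf1a (2.74) and Cd40 (1.87), and 2 were lower. The part of macrophages and endothelium in the Ier3 and receptor values was not tested either. Of 29 other regulators, Traf5 alone passed (1.49), and of 16 MAP kinase genes 0 passed, with 5 under an unadjusted p of 0.05 and 0 by the per-gene test.

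In Treg cells the same reporter split gave no member either. In Treg10+ against Treg10-, 0 of 38 passed where 1.37% of 10837 genes did, 5 members had an unadjusted p under 0.05 beside 14.1% of all genes (limma), and the per-gene equal-variance test called 0. The lowest adjusted p was that of Bcl3, a nuclear IkB protein that can act as a coactivator, at 31.9 and 33.3 FPKM in Treg10- and 51.6 and 44.4 FPKM in Treg10+ (log2 fold change 0.55 ± 0.14, SE, adjusted p = 0.142). Nfkbid was at 27.996 and 28.4 FPKM against 38.7 and 35.8 FPKM, and Nfkbiz at 18.3 and 19.9 FPKM against 25.5 and 23.9 FPKM. The log2 differences of these 3 IkB genes, 0.55, 0.40 and 0.37, did not pass.

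Nfkbia was at 301 and 251 FPKM in Treg10- and 353 and 282 FPKM in Treg10+, and Tnfaip3 at 18.1 and 22.1 FPKM against 22.5 and 20.0 FPKM. Myd88 was at 48.2 and 46.7 FPKM against 53.5 and 48.4 FPKM, and Irak1 at 32.2 and 34.4 FPKM against 31.8 and 40.9 FPKM. Nfkb1 was at 28.7 and 34.1 FPKM against 30.7 and 38.9 FPKM, and Rela at 57.6 and 68.8 FPKM against 64.8 and 73.0 FPKM. Groups of 2 overlapped in each of these genes but Myd88, whose log2 difference was 0.10 (adjusted p = 0.812). Of 27 known target genes tested, 1 was higher, the chemokine gene Ccl5 (1.61), and 1 lower, the chemokine receptor gene Ccr7 (-2.57). Of 19 receptors, 30 other regulators and 16 MAP kinase genes, 0 passed in limma, with 6, 2 and 3 under an unadjusted p of 0.05, and the per-gene test called 0 of all 10837 genes. The 8 macrophage markers summed to 32.6 to 66.6 FPKM in Treg10- and 153 to 198 FPKM in Treg10+, 3 of the 8 were higher, and their part in the members' values was not tested.

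Whether the reporter-linked difference itself differed between ILC2 and Treg cells was tested as a contrast over the 10 libraries. No member passed, against 8.10% of 12475 genes, and 11 members had an unadjusted p under 0.05 beside 19.8% of all genes. Over all genes 815 were higher and 195 lower, and 670 and 330 with quantile scaling. The lowest adjusted p was that of Nfkbiz (difference of log2 changes -0.53 ± 0.15, SE, adjusted p = 0.0566, limma), from -0.15 in ILC2 and 0.37 in Treg cells. Without Treg10- library 2, Traf3, encoding a brake on the alternative kinase, passed as lower. Among known targets 5 of 34 were higher and 9 lower in this contrast, with Il2 (-3.95), Tnf (-3.70) and Il1b (3.33) the largest. In Treg10+ and Treg10- the means were 0.078 and 0.088 FPKM for Il2, and 0.176 and 0.231 FPKM for Il1b. With the floor of 1 FPKM their Treg change was 0, so their contrast values repeat the ILC2 change. The same holds for Csf2 (-3.04), and these values say nothing of a Treg difference. In the same contrast 10 of 10 endothelial and 7 of 8 alveolar type 2 markers were higher, and their part was not tested.

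The widest differences lay between cell types. Tnfaip3, Nfkbiz, Nfkbid, Nfkb1, Map3k8 and Nfkbia were higher in lung ILC2 than in splenic Treg cells in both the reporter-negative and the reporter-positive comparison, while Tank, Malt1 and Ikbke were lower in both. The comparisons share no library, but neighbouring libraries of the 2 reporter fractions share a tag in their titles. Their deviations from the group means correlated at 0.187 to 0.345 in the ILC2 pairs. Both Treg pairs gave 0.385, which is 1 value, since deviations in groups of 2 mirror each other. The comparisons therefore cannot be taken as independent. In ILC2act against Treg10- 7 members were higher and 5 lower of 38, or 18.4% and 13.2%, beside 8.72% and 9.46% of 11308 genes (limma). In ILC210 against Treg10+ 7 were higher and 3 lower, or 18.4% and 7.89%, beside 12.3% and 7.20% of 12181 genes (1498 and 877 genes, and 1199 and 1230 with quantile scaling). The members' median was 0.02 in the first and 0.00 in the second, beside -0.05 and 0.00 for all genes.

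Tnfaip3 (chr10:19000909-19015410, minus strand, GRCm38) showed the largest difference of the 38 in both comparisons. It was at 696, 859 and 789 FPKM in ILC2act and 18.1 and 22.1 FPKM in Treg10-, and at 621, 779 and 553 FPKM in ILC210 and 22.5 and 20.0 FPKM in Treg10+. ILC2 values exceeded Treg values 38.9-fold in the reporter-negative cells (log2 fold change 5.28 ± 0.14, SE, adjusted p = 1.13e-06, limma) and 30.4-fold in the reporter-positive cells (adjusted p = 5.01e-06). In ILC210 against Treg10+ the per-gene test on FPKM did not call Tnfaip3, Nfkbid, Nfkbia, Nfkb1, Tank or Rel (adjusted p of 0.0517 to 0.0583), whereas that on log2 values called all 6. Its promoter window is the second printed above.

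Nfkbiz came next. Its 6 ILC2 values in this table ran from 221 to 287 FPKM and its 4 Treg values from 18.3 to 25.5 FPKM, or 14.5-fold (adjusted p = 1.13e-06, limma) and 10.0-fold (adjusted p = 7.4e-06) apart. Nfkbid ran from 292 to 416 FPKM in ILC2 and from 27.996 to 38.7 FPKM in Treg cells, 12.8-fold and 8.88-fold apart. Nfkbia was 4.23-fold and 3.97-fold higher in ILC2, with 1059 to 1427 FPKM against 251 to 353 FPKM. In each of these genes the 6 ILC2 and 4 Treg libraries did not overlap. The share of all genes for which this held was not counted, so the separation adds no support. The other IkB genes moved less, Nfkbie at 0.63 and 0.68 on the log2 scale and Bcl3 at -0.29 and -0.80, and none of them passed both limits.

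Of the subunits, Nfkb1 was at 125 to 180 FPKM in ILC2 and 28.7 to 38.9 FPKM in Treg cells. The fold was 5.49 for ILC2act against Treg10- (adjusted p = 1.18e-05, limma) and 4.12 for ILC210 against Treg10+ (adjusted p = 0.000124). Rela, its usual partner, did not pass in either, at 66.6 to 76.5 FPKM in ILC2 and 57.6 to 73.0 FPKM in Treg cells, with 95% intervals of -0.15 to 0.40 and -0.18 to 0.34. Nfkb2 passed in the first comparison alone (2.03-fold, adjusted p = 0.00336, 59.7 to 88.1 FPKM against 34.6 and 35.6 FPKM) and Rel in the second alone (2.02-fold, adjusted p = 0.00875). Both lay close to the 2-fold limit: without ILC2act library 2 Nfkb2 was lost and Rel passed in the first comparison, and in the second Rel was lost without ILC210 library 1, ILC210 library 3 or Treg10+ library 1. Rel was also lost in the second with either pseudocount in place of the floor (0.85 and 0.99), without a low-value filter, with quantile scaling (0.80) or equal medians (0.96), and in the per-gene test on FPKM. Nfkb2 was lost in the first without a low-value filter (adjusted p = 0.0632) and in both per-gene tests (0.119 and 0.0654). Relb did not pass, at 0.17 and -0.29 on the log2 scale.

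No gene of the MyD88 relay passed between cell types. In both comparisons 0 of its 5 genes passed in limma, with 2 and 2 under an unadjusted p of 0.05, beside 47.2% and 42.8% of all genes, and 0 by the per-gene test. Myd88 was at 36.4 to 45.5 FPKM in ILC2 and 46.7 to 53.5 FPKM in Treg cells, with log2 differences of -0.22 (adjusted p = 0.139) and -0.33 (adjusted p = 0.0962). The kinase gene Irak4 was at 14.9 to 19.0 FPKM in ILC2 and 20.3 to 24.2 FPKM in Treg cells, and Irak1 at 30.0 to 38.6 FPKM and 31.8 to 40.9 FPKM. All ILC2 values of Myd88 and Irak4 lay below all Treg values, whereas those of Irak1 overlapped. How many of all genes were separated in this way was not counted.

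**Figure D3:**
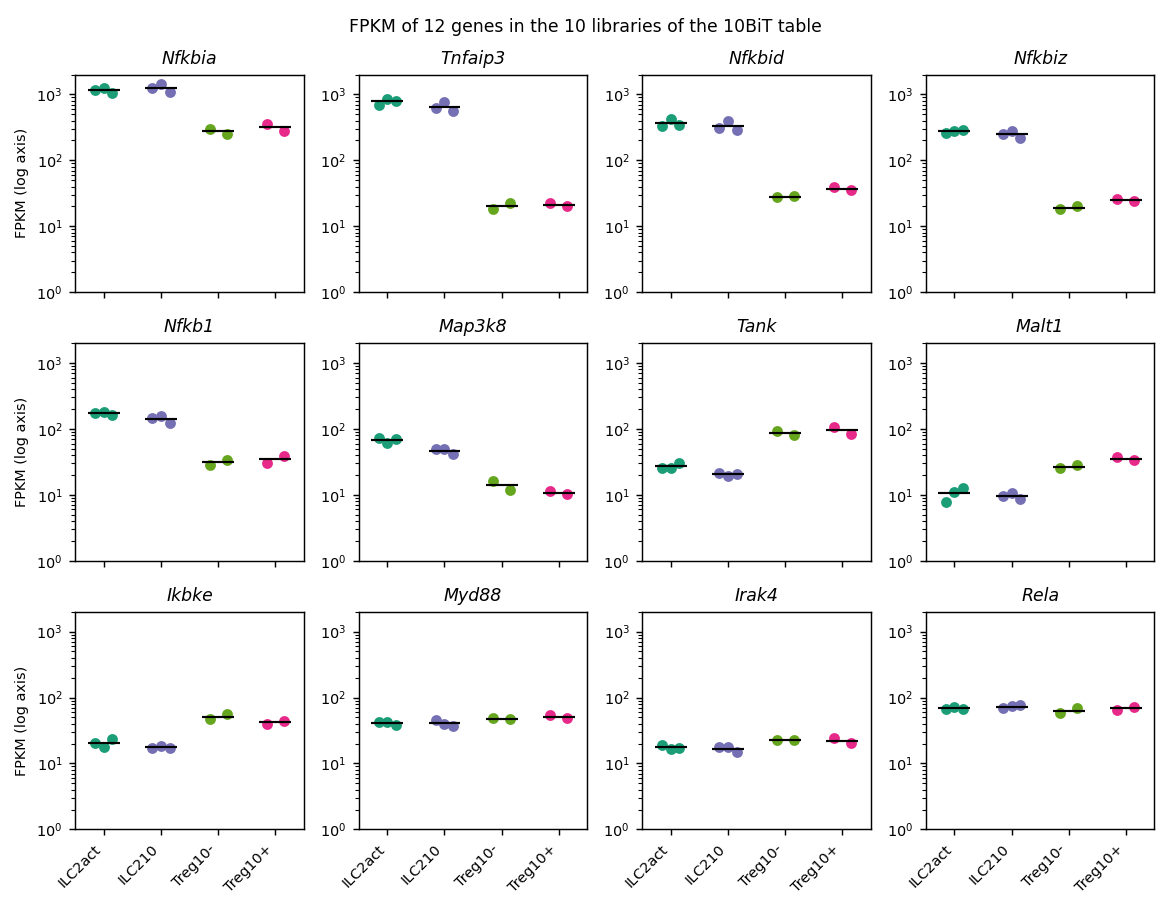
FPKM on a log axis (vertical) of 12 genes in each library of ILC2act, ILC210, Treg10- and Treg10+ (horizontal); each point is 1 library and each bar the mean of its group. Tnfaip3 points lie at 553 to 859 FPKM in ILC2 and 18.1 to 22.5 FPKM in Treg cells, Tank points run the other way, and Rela points overlap between cell types.

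Among kinases, Map3k8 was at 41.1 to 73.1 FPKM in ILC2 and 10.1 to 16.3 FPKM in Treg cells, 4.94-fold (adjusted p = 8.04e-05, limma) and 4.33-fold (adjusted p = 7.12e-05) higher in ILC2. Tank went the other way, at 19.6 to 30.9 FPKM in ILC2 and 79.7 to 107 FPKM in Treg cells, 3.16-fold (adjusted p = 0.000128) and 4.58-fold (adjusted p = 5.62e-05) lower in ILC2. Ikbke, the kinase that TANK binds, was at 16.9 to 23.2 FPKM in ILC2 and 40.0 to 56.2 FPKM in Treg cells, 2.52-fold and 2.41-fold lower. In these 3 genes the ranges of the cell types did not overlap, and the share of such genes over all genes was not counted. The core kinase genes Ikbkb, Chuk and Ikbkg, and Map3k7, encoding TAK1, passed in neither comparison, with log2 differences between -0.32 and 0.09.

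Of the TRAF and cIAP genes, Birc2 was lower in ILC2act than in Treg10- (2.30-fold, adjusted p = 0.000249, 19.8 to 22.8 FPKM against 48.0 and 49.9 FPKM) and 1.87-fold lower in ILC210 than in Treg10+, under the 2-fold limit. Birc3 was higher in ILC2, at 76.0 to 86.0 FPKM against 42.2 to 44.5 FPKM, by 1.92-fold and 1.81-fold. Traf1 was at 74.2 to 102 FPKM against 54.0 to 67.8 FPKM, and Traf2 at 24.8 to 32.0 FPKM against 42.8 to 50.9 FPKM. These passed the adjusted p but not the fold limit. Rnf31, the catalytic subunit of the linear ubiquitin ligase, was 2.12-fold lower in ILC2act than in Treg10- (adjusted p = 0.00249), a call lost without Treg10- library 2 (log2 fold change -0.89) and in the per-gene test on FPKM (adjusted p = 0.0632). Its partner Rbck1 was at 101 to 127 FPKM across the 10 libraries.

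Malt1, the paracaspase of antigen-receptor signalling, was at 7.79 to 12.8 FPKM in ILC2 and 25.8 to 37.4 FPKM in Treg cells, 2.60-fold (adjusted p = 0.00302, limma) and 3.68-fold (adjusted p = 0.000167) lower in ILC2. The first of these calls was lost without a low-value filter (adjusted p = 0.06) and in the per-gene test on log2 values (adjusted p = 0.0629). Its adaptor partner Bcl10 was at 34.0 to 41.9 FPKM in ILC2 and 31.0 to 43.1 FPKM in Treg cells and did not pass. Of the remaining brakes, Tnip1 was at 25.6 to 38.5 FPKM in ILC2 and 42.1 to 45.02 FPKM in Treg cells, and neither it, Tnip2 nor Cyld passed both limits.

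**Figure D4:**
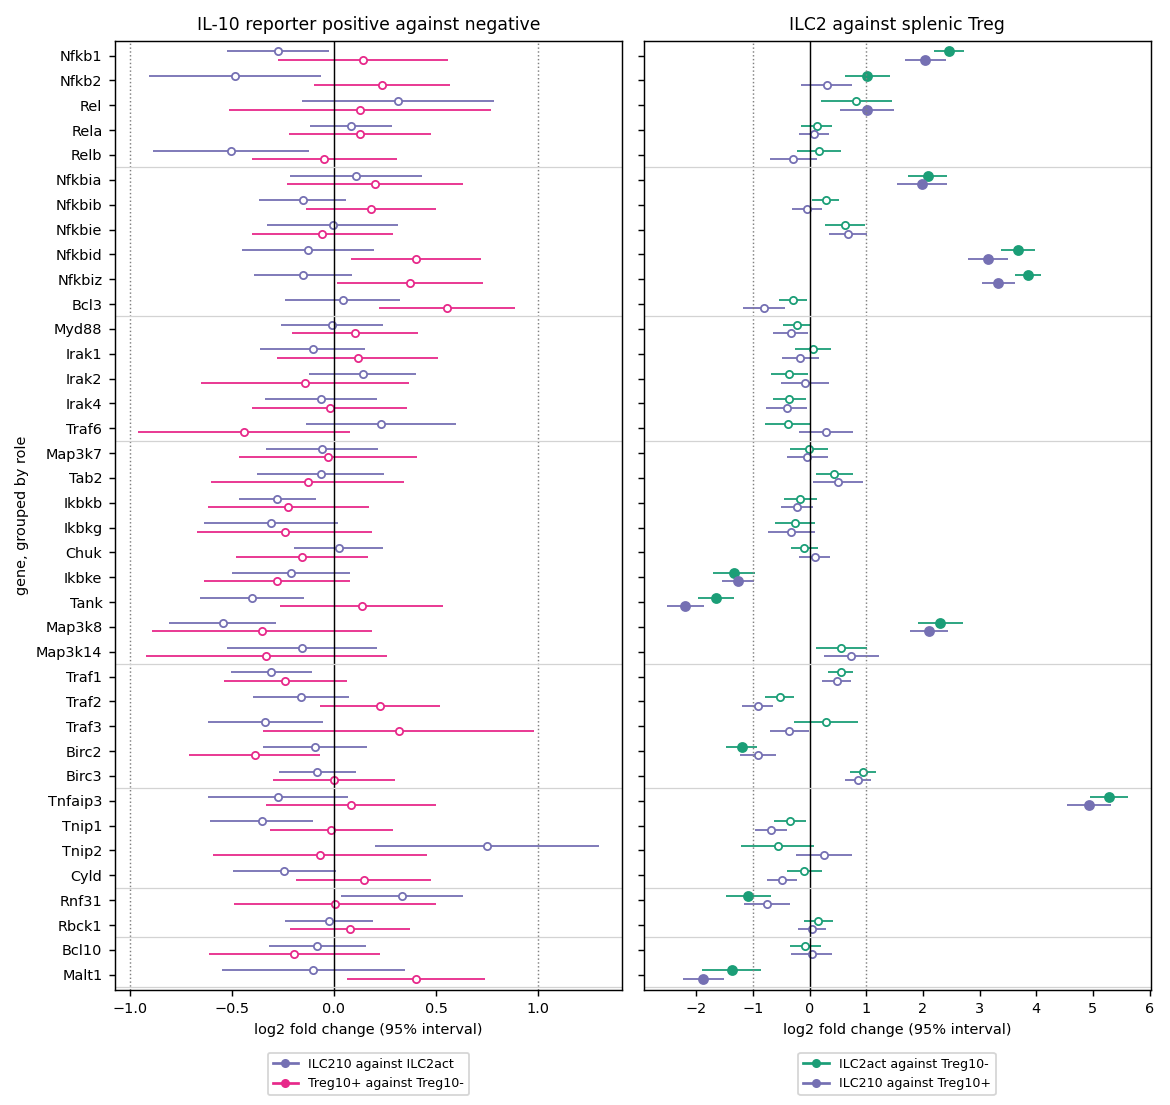
Log2 fold changes of the 38 genes with 95% intervals (horizontal axes) by gene (vertical axis, grouped by role), for the IL-10 reporter comparisons (left) and for ILC2 against Treg cells (right); filled points passed the adjusted p and 2-fold limits. No point is filled on the left, and on the right Tnfaip3 is farthest from 0 at 5.28 and 4.92.

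The other lists are read against 8.72% higher and 9.46% lower of all genes in ILC2act against Treg10-, and 12.3% and 7.20% in ILC210 against Treg10+. Since these lists were chosen with earlier results known, their shares are again descriptive. Of 21 upstream receptors tested in ILC2act against Treg10-, 4 were higher and 8 lower (19.0% and 38.1%), with Tnfrsf4 (-5.56) and Tnfrsf9 (-4.33), costimulatory receptors of T cells, and Tnfrsf11a (4.27) the largest. In ILC210 against Treg10+ 5 of 23 were higher and 8 lower (21.7% and 34.8%), led by Tnfrsf4 (-7.54), Tnfrsf9 (-4.19) and Il1r2 (3.51). Il1rl1 itself was 2.53 and 1.58 log2 units higher in ILC2, and its protein was part of the gate that sorted them. Of 28 and 31 other regulators tested, 2 were higher and 3 lower in the first comparison and 2 and 2 in the second, shares of 6.45% to 10.7%. Traf5 (-3.90 and -2.09) and Tirap (-1.77 and -1.998) were lower in ILC2 and Irak3, an inhibitory IRAK, was higher (2.62 and 2.19). Of 16 MAP kinase genes 2 were higher and 1 lower in the first comparison, and 1 and 1 in the second, shares of 6.25% to 12.5%. Mapk11 was lower (-2.26 and -1.90), and Map2k6 (1.25) and Mapkapk3 (1.06) were higher in the first comparison and Mapk3 (1.14) in the second. Known target genes were 13 higher and 3 lower of 31 in the first comparison (41.9% and 9.68%), among them Csf2 (9.13), Cxcl2 (6.03) and Il6 (5.87), and 9 higher and 5 lower of 33 in the second (27.3% and 15.2%), among them Ier3 (6.82), Csf2 (6.08) and Ptgs2 (5.60). Csf2 was at 44.7 to 633 FPKM in ILC2 and at most 0.253 FPKM in Treg cells. Cxcl2 in Treg10-, Il6 and Ptgs2 in all Treg libraries, the latter listed at 0, Ier3 in 1 Treg10- library and Tnfrsf11a in Treg cells were also under 1 FPKM, so the sizes and order of these changes depend on the floor of 1 FPKM. In the per-gene test on FPKM 5 target genes were higher and 2 lower in the first comparison and 3 and 0 in the second.

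In ILC210 against Treg10+ 10 of 10 endothelial, 8 of 8 alveolar type 2 and 5 of 5 fibroblast markers tested were higher in ILC2, and in ILC2act against Treg10- 6 of 10, 6 of 8 and 0 of 1. Immediate early genes also moved with these differences. The summed FPKM of 8 immediate early genes was 3703 to 5819 in the 6 ILC2 libraries of the 10BiT table and 281 to 348 in the 4 Treg libraries. Lung cells were released with Liberase, and the spleen procedure is not given in the sources used here. The part of these cells and genes, or of cell release, in the values of the NF-kB feedback genes was not tested.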

How the data were processed

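RNA-seq of sorted mouse cells was analysed in 15 libraries, 5 in the table of IL-33 activation (Ion Proton) and 10 in the table of 10BiT mice (NextSeq 500). Groups were taken from the sample titles. The source field of the Treg libraries names lung ILC2, whereas titles and descriptions name splenic Treg cells, which was followed.

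Per the submitters' processing notes and the study's methods, reads were aligned to GRCm38 with TopHat2 2.1.0, and the deposited FPKM values were made by the authors with Cufflinks 2.2.1 on GENCODE annotation. FPKM are normalized to transcript length and mapped reads. From the deposited 10BiT table, entries with a text mark for low data (312 genes) or without a value (5 genes) were excluded. FPKM carry no read counts. From the spacing of low values, relative depth ran from 0.933 to 1.25 of ILC2PBS library 3 in the first table and from 0.395 (Treg10+ library 1) to 1.09 of ILC2act library 1 in the second, with 21.3% to 27.3% of low genes on the common spacing within 0.006 log2 units. Within a group, at most 1 gene above 1 FPKM had the same value in 2 libraries. The labels do not say that libraries of a group came from separate animals, so p-values measure the spread between these libraries.

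The tables were never joined in a test. Values under 1 FPKM were set to 1 before taking log2. The test was limma 3.58.1 (lmFit, then eBayes with a trend, R 4.3.3), applied to genes that exceeded 1 FPKM in no fewer libraries than the smaller group had. P-values were adjusted over all genes tested by Benjamini-Hochberg, and calls needed a 2-fold change besides an adjusted p below 0.05. The study's own methods used an equal-variance test of each gene, which was run as an alternative. All 38 members were above the low-value filter in every comparison. Intervals are 95% limits of the limma fit, and the fits were tested on simulated data. Where groups are said not to overlap, this describes the named genes, and its share over all genes was not counted.

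Neighbouring library numbers in the titles share a tag. Libraries 1 and 3 of ILC2act and of ILC210 all carry the same tag, and library 2 of both groups carries another. What the tag marks is not stated, so libraries 1 and 3 of a group cannot be taken as independent. Deviations from the group means correlated at 0.345, 0.299 and 0.187 in the 3 ILC2 pairs and 0.385 in the Treg pairs. In groups of 2 the deviations mirror each other, so both Treg pairs give 1 and the same value. The pair was run as a block. Other alternatives were pseudocounts of 1 and 0.1 without the floor, no filter or a mean of at least 5 FPKM, quantile and equal-median scaling, no fold limit, a fit of all 10 libraries, and leaving out each library or ILC2PBS libraries 1 and 2.

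Members, roles and lists were chosen with earlier results of these data known. The immediate early, Y-linked and X inactivation lists were added after the values were seen. Values in every library are given for members that passed within a cell type, for the 2 of highest mean in each role of at least 5 genes, and for Myd88, Nfkb1, Rela, Nfkbia and Tnfaip3, and up to 3 genes of largest change per pathway list and comparison are named. Genes outside this rule were named after their values were seen. Otulin, Adgre1 and Cxcl15 were matched by older symbols. Trac and Ly6g were not matched. Promoters came from RefSeq (GRCm38.p6) and were searched and drawn with Python 3.11.15.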

Additional observations from a re-analysis of the deposited data

Results flagged for a closer look

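Cyld, encoding a deubiquitinase that limits NF-kB signalling, had differences of opposite sign between IL-10 reporter groups in the 2 cell types. It was at 28.8, 26.6 and 33.2 FPKM in ILC2act and 26.1, 24.7 and 23.7 FPKM in ILC210, and at 29.9 and 32.9 FPKM in Treg10- and 33.4 and 36.1 FPKM in Treg10+. The groups did not overlap within either cell type, the log2 changes were -0.24 and 0.15, and the difference between them was -0.39 ± 0.16 (SE), which did not pass (adjusted p = 0.214, limma contrast of 10 libraries). Cyld was singled out after its values were seen.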

How the results depend on the processing

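Of the counts of members called, those in Treg10+ against Treg10- stayed at 0 in every alternative run. In ILC2IL-33 against ILC2PBS the 3 higher members became 1 without a low-value filter, 0 in either per-gene equal-variance test, 7 without a fold limit, 0 without both ILC2PBS libraries 1 and 2, and 1 to 3 when 1 library was left out. The 1 lower member became 0 in either per-gene test and with equal medians, 2 without a fold limit, and 0 to 1 when 1 library was left out. Without a fold limit 3 members were lower in ILC210 than in ILC2act, 12 were higher in ILC2act than in Treg10-, and 11 were higher and 9 lower in ILC210 than in Treg10+, where the per-gene test on FPKM called 2 higher. The contrast of changes called 0 to 1 lower when 1 library was left out. The replicate block, the pair of neighbouring library numbers, called 0 members in the ILC2, Treg and contrast fits and changed no member's call, while over all genes the Treg calls went from 98 higher and 50 lower to 311 and 123. Over all genes, the alternatives that kept every library gave 255 to 1655 higher and 189 to 2859 lower in ILC2IL-33 against ILC2PBS, 18 to 1350 and 4 to 502 in ILC210 against ILC2act, 0 to 311 and 0 to 123 in Treg10+ against Treg10-, 496 to 1863 and 601 to 2328 in ILC2act against Treg10-, 180 to 2095 and 367 to 1787 in ILC210 against Treg10+, and 313 to 960 and 107 to 330 in the contrast. Changes near 0 turned sign. In ILC2IL-33 against ILC2PBS, Nfkbia was -0.12 with quantile scaling and Tnfaip3 0.14 with equal medians. When 1 library was left out, Tnfaip3 ran from -0.18 to 0.10 and Myd88 from -0.038 to 0.084. In ILC210 against ILC2act, Rela was -0.059 and Nfkbia -0.034 with equal medians, and Myd88 ran from -0.095 to 0.066 when 1 library was left out. In Treg10+ against Treg10-, Nfkb1 ran from -0.028 to 0.31, Rela from -0.0011 to 0.26 and Tnfaip3 from -0.062 to 0.23. Rela ran from -0.0030 to 0.25 in ILC2act against Treg10- and from -0.0055 to 0.16 in ILC210 against Treg10+. In the contrast, Nfkbia was 0.11 with quantile scaling and ran from -0.25 to 0.067, and Rela ran from -0.17 to 0.082. These members passed under none of those settings. The cause of these moves was not tested. Groups hold 2 or 3 libraries, SEs of members reach 0.356 log2 units, and FPKM give no counting interval.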
